A study of Drosophila melanogaster with 3 samples.

Results

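The genes described here are those of the proteasome of Drosophila melanogaster. They were taken as the protein-coding genes whose symbol starts with Prosalpha or Prosbeta, or with Rpn or Rpt followed by a digit. The rule found 48 of the 13945 protein-coding genes on 6 chromosome arms. Of these, 25 encode the core particle, 9 the lid and 14 the base of the regulatory particle. The symbols of 16 of the 48 carry a suffix with T or R (Prosalpha6T, Rpt3R), which marks duplicates of a subunit gene, several of which are known to be expressed in the testis. The remaining 32 are called the main subunit genes here, and they comprise 14 core, 8 lid and 10 base genes. Sem1, a small lid subunit, has a symbol outside the rule and is given with the linked genes.

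Chromatin bound by Pdp1 was mapped by chromatin immunoprecipitation and sequencing (ChIP-seq) in whole embryos of mixed sex, collected between 0 and 24 h. The flies carried the Pdp1-MiMIC-GFP insertion, an eGFP exon within an intron of the endogenous Pdp1 gene, so that the gene gives a Pdp1-GFP fusion protein, which was precipitated with an antibody against GFP. All 3 samples were biological replicates of this 1 group and came from whole organisms, so no comparison between conditions was possible and the cells that gave a peak are not known. The labels name a control for peak calling, which was not analysed here.

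The proteasome degrades proteins that carry ubiquitin. Its core particle is a cylinder of alpha and beta rings, in which the alpha rings gate entry and 3 kinds of beta subunit cut peptides. The base holds a ring of Rpt ATPases that unfolds substrates and pulls them in, together with Rpn subunits that bind ubiquitin, and the lid removes ubiquitin chains through Rpn11. Pdp1 is a basic leucine zipper (bZIP) factor of the PAR family, known in flies for its part in the circadian clock and in the control of muscle genes.

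Of the 48 genes, 15 (31.2%) had a promoter summit of Pdp1-eGFP in the thresholded list of 4622 peaks, against 20.7% of all protein-coding genes. A promoter summit is the position of a peak's maximum within 500 bp of a transcription start site of the gene. All 15 were main subunit genes (46.9% of 32), and 0 of the 16 T or R copies had one. By particle, 6 of 8 main lid genes (75.0%), 4 of 10 main base genes (40.0%) and 5 of 14 main core genes (35.7%) had a thresholded promoter summit. With the copies included, these became 6 of 9 lid genes (66.7%), 4 of 14 base genes (28.6%) and 5 of 25 core genes (20.0%). Core, lid and base were set side by side with no test.

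A stricter reading brought the 48 genes, copies included, close to the background. For 8 of the 48 (16.7%) their own start site was the nearest one to a thresholded summit, against 15.2% of all genes. For the other 7 a neighbouring gene's start site was nearer at every such summit. The 8 were all main subunit genes (25.0% of 32). By particle they were 3 of 8 main lid genes (37.5%), 3 of 10 main base genes (30.0%) and 2 of 14 main core genes (14.3%). Only 5 of the 48 (10.4%) had a thresholded summit with a match, at most 100 bp away, in the 4622 highest peaks of each replicate (the top lists), against 12.2% of all genes. All were main subunit genes (15.6% of 32). These 5 were Rpn3, Rpn5 and Rpn11 of the lid, Rpt5 of the base and Prosalpha3 of the core. Leaving out replicate 2, so that support was needed in replicates 1 and 3 only, gave 8 genes, against 15.4% of all genes. Leaving out replicate 1 or replicate 3 gave 5 each time, against 13.2% and 13.9% of all genes.

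Counted by replicate, the 48 genes with a summit in the top list numbered 10 in replicate 1, 11 in replicate 2 and 11 in replicate 3, against 21.4%, 18.3% and 20.1% of all genes. The mean was 22.2% ± 1.2 (SD, n = 3) of the 48 genes and 19.9% ± 1.54 of all protein-coding genes, so that as a whole the 48 genes lay near the background. The 32 main subunit genes had a mean of 33.3% ± 1.8. Within them, the main lid genes had a summit in 58.3% ± 7.22 of cases, the main base genes in 26.7% ± 5.77 and the main core genes in 23.8% ± 4.12 (SD, n = 3). The copies had 0 in each replicate. In replicates 1, 2 and 3 the counts were 4, 5 and 5 of 8 main lid genes, 3, 2 and 3 of 10 base genes, and 3, 4 and 3 of 14 core genes, so the lid share was the highest in each.

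**Figure D1:**
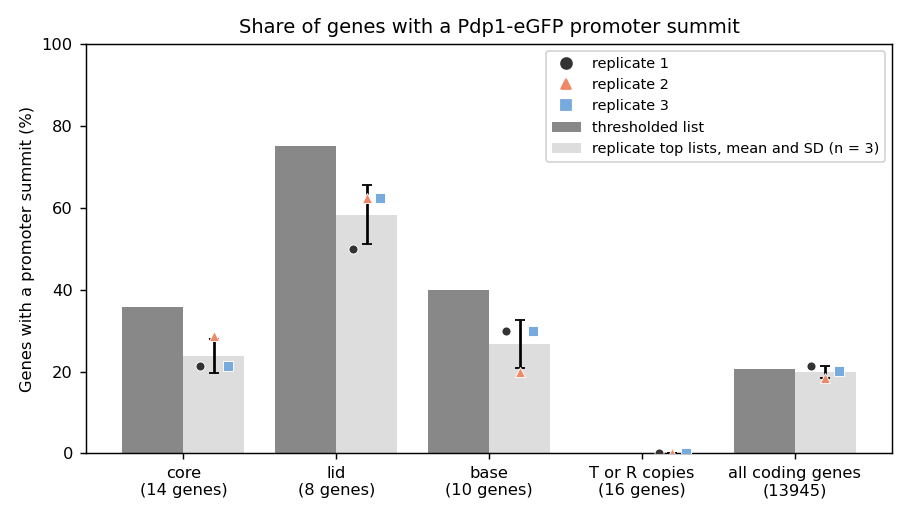
Share of genes with a promoter summit (y axis, %) for the main core, lid and base genes, the T or R copies and all protein-coding genes. Dark bars give the thresholded list, light bars the mean of the 3 replicate top lists with its SD, and points the replicates. The lid bars, at 75.0% and 58.3%, are the highest and the copies are at 0.

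DNA at subunit promoters is shown for summits of lid and base genes and for a core gene with its copy, in Release 6 (dm6) coordinates, read 5′ to 3′ on the strand of the subunit gene. Capitals mark a match to 1 of 4 motifs described further on, here the PAR bZIP site (TTACGTAA or TTATGTAA, on either strand) or the DRE (TATCGATA). For the lid, the windows reach up to 50 bp to either side of the summit with the highest signal at Rpn11 (chr2L:5059851-5059951, minus strand), Rpn5 (chr3R:5789247-5789328, plus strand) and Rpn3 (chr2L:19051613-19051704, plus strand).
Rpn11: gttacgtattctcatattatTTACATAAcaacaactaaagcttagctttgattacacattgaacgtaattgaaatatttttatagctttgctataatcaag
Rpn5: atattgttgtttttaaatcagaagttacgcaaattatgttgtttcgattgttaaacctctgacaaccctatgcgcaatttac
Rpn3: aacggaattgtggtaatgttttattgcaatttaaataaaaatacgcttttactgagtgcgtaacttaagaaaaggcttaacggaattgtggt
The base is shown by Rpn2 (chr3R:29153403-29153503, plus strand) and by the stretch between the divergent start sites of RanBP3 and Rpt5 (chr3R:23752830-23752875, plus strand). The Rpt5 stretch begins with a DRE that spans the RanBP3 start site and so reaches into that gene.
Rpn2: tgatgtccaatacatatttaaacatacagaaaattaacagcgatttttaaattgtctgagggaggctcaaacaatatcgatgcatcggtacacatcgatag
Rpt5: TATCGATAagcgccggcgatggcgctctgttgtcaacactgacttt
For the core, the 100 bp before the start site of Prosalpha6 (chr2L:10221251-10221350, plus strand) are set beside those of its copy Prosalpha6T (chr2L:13231939-13232038, plus strand), to show a DRE in the one and none in the other. The thresholded summit near Prosalpha6 lies outside this stretch, 229 bp before the start site, and Prosalpha6T had none.
Prosalpha6: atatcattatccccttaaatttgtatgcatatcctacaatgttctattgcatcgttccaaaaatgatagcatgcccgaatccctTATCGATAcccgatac
Prosalpha6T: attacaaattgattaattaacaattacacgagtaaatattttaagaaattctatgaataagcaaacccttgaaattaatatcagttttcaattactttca
The Rpn11 window was AT-rich, with a GC content of 25.7%, and the Rpt5 stretch had 52.2%. Prosalpha6 and its copy had 37.0% and 21.0%.

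Among the subunit genes, those of the lid held the peaks with the highest signal. The signal is the value the authors' peak caller gave to a peak, ranked here within its list, and replicate lists are not scaled to each other. A mean and SD of a summit's signals over replicates therefore holds differences in scale between lists as well as spread between replicates. Ranks within a list do not depend on that scale. Across the 6 lid genes the highest pooled signal per gene ran from 110 to 553 with a median of 218, while the 4 base genes ran from 108 to 182 (median 150) and the 5 core genes from 106 to 133 (median 110). The thresholded list starts at a signal of 102, and the 5 core genes had ranks from 3295 to 4400 of 4622 in it. Among the 2311 thresholded peaks of highest signal were summits of 4 lid genes, 1 base gene and 0 core genes. That is 10.4% of the 48 genes, against 12.4% of all genes.

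Rpn5, a scaffold subunit of the lid, had the strongest peak of the 48 genes, at chr3R:5789266-5789469, with a pooled signal of 553 and rank 281. Its signal was 228 in replicate 1, 201 in replicate 2 and 129 in replicate 3 (186 ± 51.1, SD, n = 3), and the corresponding ranks were 231, 246 and 461. It was thus near the top of every list. The summit lay 196 bp upstream of the Rpn5 start site, within an intron of the divergent neighbour Hat1, a histone acetyltransferase gene whose start site was nearer, at 87 bp.

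Rpn3, another scaffold subunit of the lid, had a summit of pooled signal 273 (rank 1132) at chr2L:19051449-19051858. Its signal was 101, 80.1 and 92.8 in replicates 1, 2 and 3 (91.2 ± 10.5, SD, n = 3), and it was in all 3 top lists. The start site of l(2)37Bb was nearer, at 42 bp, than that of Rpn3, at 136 bp. In replicates 1 and 3, however, the matched summit lay 81 bp from Rpn3 and 97 bp from l(2)37Bb, so the nearest gene changed with the list. A second summit, of pooled signal 210, lay in the 5′ UTR of Rpn3, 64 bp upstream of a further Rpn3 start site, with 25.5, 33.0 and 22.0 in the replicates (26.8 ± 5.62).

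Rpn11, the metalloprotease that cuts ubiquitin chains off substrates, had a summit in a promoter that it shares with no close neighbour. The peak at chr2L:5059696-5060105 had a pooled signal of 213 (rank 1684), and its summit lay 111 bp upstream of the only annotated Rpn11 start site, with no other gene's start site within 500 bp of that site. Its signal was 88.9, 53.4 and 65.6 in replicates 1, 2 and 3 (69.3 ± 18.0, SD, n = 3), so that it was in all 3 top lists. A second, overlapping peak with its summit 310 bp upstream had 139 in the pooled list. It reached 57.5 in replicate 1 and was lower in replicate 2 (13.8) and replicate 3 (30.2), so only replicate 1 had it in its top list.

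The other 3 lid genes were less even across replicates. Rpn6, which in yeast links the lid to the core, had a pooled signal of 222 with 96.9 in replicate 1 and 63.8 in replicate 3, while replicate 2 had no summit within 100 bp. Its start site lay 132 bp from the summit and that of the neighbour ave 118 bp. Rpn8, the partner of Rpn11, had a pooled signal of 132 with 42.2, 55.4 and 24.7 in the replicates (40.8 ± 15.4, SD, n = 3), at an internal start site 254 bp away, and the kinase gene Slik was nearer at 71 bp. Rpn12, a scaffold subunit, had a pooled signal of 110 with 41.7 in replicate 1 and 40.1 in replicate 3 at 113 bp upstream of its own start site, and in replicate 2 a summit of 20.2 in the window but over 100 bp away. When each gene was given its outermost 5′ start site only, Rpn6 (507 bp) and Rpn8 (2723 bp) no longer had a promoter summit. This left 4 of 9 lid genes (44.4%), against 18.6% of all genes. Rpn7 and Rpn9, the remaining main lid genes, had pooled summits below the threshold, with signals of 75.1 and 41.4. Rpn7 had 29.4, 34.2 and 19.1 in replicates 1, 2 and 3, in the top list of replicate 2 alone, and Rpn9 had 39.1 and 17.3 in replicates 1 and 3.

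In the base, a thresholded promoter summit was found at 3 of 4 Rpn genes and at 1 of 6 Rpt genes, against the 20.7% of all genes. The top lists of replicates 1 and 3 kept this order, each with 2 of the 4 Rpn genes and 1 of the 6 Rpt genes. It was not kept in every list. The pooled list held all 6 Rpt genes and 3 of the 4 Rpn genes, and the top list of replicate 2 held 2 Rpt genes and 0 of these Rpn genes. Rpn13, a ubiquitin receptor, had a pooled signal of 182 with the summit 77 bp upstream of its own start site. Its signal was 71.4 in replicate 1 and 41.8 in replicate 3, and replicate 2 had no matched summit. Rpn2, the large scaffold that holds Rpn13, had a pooled signal of 137, with 61.4, 19.1 and 22.6 in the replicates (34.3 ± 23.5, SD, n = 3). Replicate 1 was the high one at this summit, and replicate 3 had a stronger summit, of 53.2, elsewhere in the 500 bp window. The pooled summit lay 71 bp upstream of Rpn2, nearer than Slbp at 187 bp.

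Rpn10, a ubiquitin receptor counted here with the base although it joins base and lid, had a pooled signal of 108. The summit lay 21 bp upstream of an internal start site and 45 bp downstream of the outermost one. Its signal was 40.9 in replicate 1 and 24.8 in replicate 3, so that it was in no top list. Rpt5, an ATPase, had a pooled signal of 162, with 72.8, 28.6 and 37.1 in the replicates (46.2 ± 23.4, SD, n = 3), and was in all 3 top lists. Its summit lay in the short space between the divergent start sites of RanBP3, at 14 bp, and Rpt5, at 28 bp, printed above. The other 5 ATPase genes, Rpt1, Rpt2, Rpt3, Rpt4 and Rpt6, had pooled summits below the threshold, from 33.2 at Rpt1 to 84.0 at Rpt3. Rpn1, the docking subunit for ubiquitin shuttle proteins, had a summit in replicate 1 alone (19.7).

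In the core, thresholded summits were at 4 of 7 main alpha genes and at 1 of 7 main beta genes, against 20.7% of all genes. The difference was smaller in the top lists of replicates 1, 2 and 3, which held 2, 3 and 2 of the alpha genes and 1 beta gene each. Prosalpha3, a subunit of the gate ring, was the one with support in all 3 top lists. Its pooled signal was 133, it had 50.8, 38.2 and 40.3 in the replicates (43.1 ± 6.75, SD, n = 3), and the summit lay 42 bp upstream of its own start site. Prosalpha7 had a pooled signal of 106 with the summit 81 bp upstream of its own start site, matched within 100 bp in replicate 1 alone (42.6). In replicate 3 a summit of 39.5, in the top list, lay in the same 500 bp window but nearer to CG1671. These were the only core genes whose own start site was nearest.

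At the other 3 core genes a neighbour was nearer. Prosbeta1, a catalytic subunit, had a pooled signal of 128 with 51.6 in replicate 1, 49.8 in replicate 3 and no match in replicate 2, and the start site of the exosome gene Rrp42 was 22 bp from the summit against 99 bp for Prosbeta1. Prosalpha4 had 110 in the pooled list and 26.2, 33.2 and 33.6 in the replicates (31.0 ± 4.16, SD, n = 3), with the summit in an intron of kat80, 24 bp from its start site and 329 bp from that of Prosalpha4. Prosalpha6 had 109, matched in replicate 1 alone (46.5, with 10.6 elsewhere in the window in replicate 3), in an intron of Npc1a, 94 bp from its start site and 229 bp from that of Prosalpha6. With a window of 200 bp in place of 500 bp, 3 core genes had a thresholded summit, Prosalpha4 and Prosalpha6 being beyond it.

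The catalytic subunit genes Prosbeta2 and Prosbeta5 did not reach the threshold. Prosbeta2 had a pooled signal of 88.9, and Prosbeta5 a summit in replicate 1 only, with a signal of 31.7. Prosalpha2, Prosalpha5 and Prosbeta3 had pooled signals of 89.0, 58.7 and 47.8. Prosbeta4, Prosbeta6 and Prosbeta7 had summits in replicate lists alone, none higher than 17.6. Prosalpha1 was the single main subunit gene with no promoter summit in any list.

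**Figure D2:**
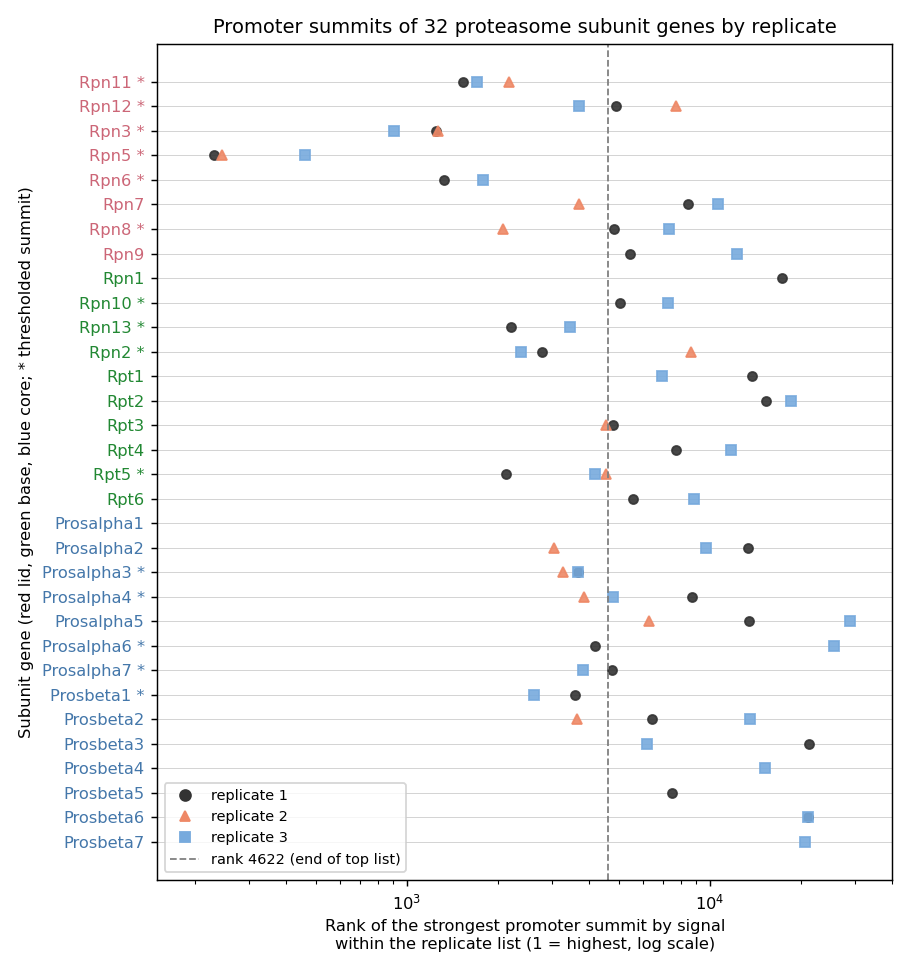
Rank by signal (x axis, log scale, 1 is the highest) of the strongest promoter summit within 500 bp of each of the 32 main subunit genes (y axis) in each replicate list; a missing point is a gene with no such summit, and a point need not match the pooled summit within 100 bp. The dashed line marks rank 4622, the end of the top list, and asterisks mark genes with a thresholded summit. Rpn5 lies farthest left in all 3 replicates, at ranks 231, 246 and 461.

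In the whole lists, which hold 27719 pooled peaks and 30000 peaks per replicate, 28 of the 48 genes (58.3%) had a promoter summit in the pooled list, against 51.1% of all genes. They were 26 of the 32 main subunit genes (81.2%) and 2 of the 16 copies (12.5%). All 8 main lid genes were among them, with 9 of 10 base and 9 of 14 core genes. The whole replicate lists held 31, 18 and 29 of the 48 genes, against 53.7%, 36.7% and 54.2% of all genes. Replicate 2 was lowest both for the 48 genes and for all genes, and of the main subunit genes it held 14, against 29 in replicate 1 and 28 in replicate 3.

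The T or R copies were largely without summits. Of the 16 copies, 10 had no promoter summit in any list, among them Prosalpha6T, Prosalpha4T1, Rpt4R and Rpt6R. The pooled list held Prosbeta2R2 with a signal of 51.0 and Prosalpha4T2 with 34.3, both below the threshold. At Prosbeta2R2 the replicate signals were 26.1 and 14.6 in replicates 1 and 3, and the start site of CG1116 lay 129 bp away from its own. Prosalpha4T2 (26.1), Prosbeta5R2 (26.4), Prosbeta4R1 (10.9) and Prosbeta4R2 (11.8) had a summit in replicate 2 alone among the replicates, given by its signal there, and Rpt3R in replicate 1 alone (14.7). The whole lists of replicates 1, 2 and 3 thus held 2, 4 and 1 of the copies.

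Many summits lay between closely spaced genes. Another protein-coding gene's start site lay within 500 bp of a start site of 21 of the 32 main subunit genes (65.6%), of 3 of the 16 copies (18.8%) and of 30.9% of all genes. Among genes with such a neighbour, 11 of 21 main subunit genes (52.4%) and 0 of 3 copies had a thresholded promoter summit, against 39.3% of all genes. Among genes without one, 4 of 11 main subunit genes (36.4%) and 0 of 13 copies did, against 12.3% of all genes. The 4 without a close neighbour were Prosalpha3, Rpn10, Rpn11 and Rpn12. The part that shared promoters play in the counts was not tested beyond this split.

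The 15 genes had 17 thresholded promoter summits, each upstream of the subunit gene's nearest start site, from 21 bp at Rpn10 to 329 bp at Prosalpha4. That start site was an internal one for Rpn6, Rpn8, Rpn10 and the second summit of Rpn3. These summits lay downstream of the outermost start site, by 507, 2723, 45 and 75 bp. Taken to the nearest start site of any gene, 15 of the 17 (88.2%) were upstream, near the 84.2% of all 2257 promoter summits. On that measure the median distance was 71 bp for the 17 summits and 111 bp for all promoter summits, and 13 of the 17 (76.5%) were within 100 bp, against 45.1% of all. Their median pooled signal was 137, against 188 for all promoter summits. By annotation, 10 of the 17 lay between genes, 3 in an intron of a neighbour, 2 in an intron and 2 in the 5′ UTR of the subunit gene.

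**Figure D3:**
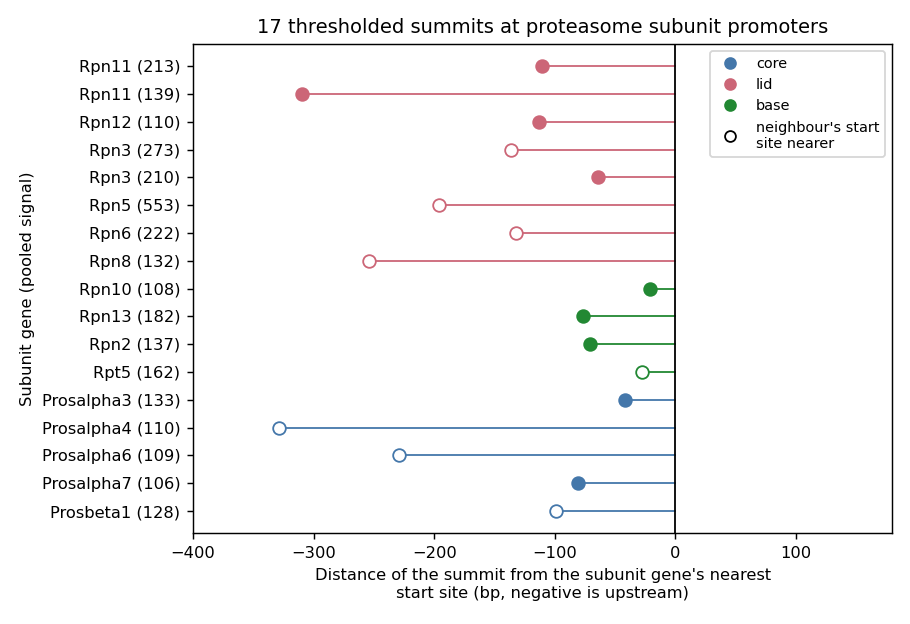
Distance (x axis, bp) of each of the 17 thresholded summits from the nearest start site of its subunit gene, with the pooled signal in brackets (y axis) and colours for core, lid and base. Open circles mark summits nearer to a neighbour's start site. All 17 lie upstream of the subunit gene's nearest start site, and the farthest, at Prosalpha4, is 329 bp away. That start site is an internal one for Rpn6, Rpn8, Rpn10 and the second Rpn3 summit.

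The letters of 4 motifs were searched on both strands of each gene's promoter, from 250 bp before to 50 bp after its outermost start site. They were the PAR bZIP site (TTACGTAA or TTATGTAA), the DRE (TATCGATA, bound by the factor DREF), the core of Motif 1 (GGTCACAC, a core promoter motif) and the ARE (TGACNNNGC, bound by Cnc with Maf-S). Matches of the Motif 1 core and the ARE overlapped in 100 promoters of all genes, those of Prosbeta3 and Rpn1 included, and no other pair of motifs overlapped. The shares are descriptions of these letters in these windows. The promoters differed in base composition, with a median GC content of 33.2% for the 48 genes and 38.0% for all genes.

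The DRE was found in 12 of the 32 main subunit promoters (37.5%), in 0 of the 16 copies and in 9.36% of all promoters. The 12 were those of Prosalpha3, Prosalpha5, Prosalpha6, Prosbeta1, Prosbeta2, Prosbeta6, Rpn3, Rpn7, Rpn9, Rpn12, Rpn13 and Rpt5, so it was present in core, lid and base. Among all genes with a thresholded promoter summit the share was 15.2%. It was 7 of 15 main subunit genes with a thresholded summit (46.7%) and 5 of 17 without (29.4%), while 7.85% of all genes without a thresholded promoter summit had it. Within 50 bp of the summit itself the DRE was present at 3 of 17 summits (17.6%), those of Prosbeta1, Rpn3 and Rpt5, against 4.21% of all promoter summits. At Rpn3 only 1 summit had it, and the bases printed for the strongest Rpn3 summit held none.

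The PAR bZIP site, the sequence class that Pdp1 binds, was rare. It was in 3 of the 32 main subunit promoters (9.38%), those of Prosbeta2, Rpn10 and Rpn11, in 0 copies and in 2.6% of all promoters. For all genes with a thresholded promoter summit the share was 2.5%, no higher than that of all promoters. Within 50 bp of a summit the site was present at 1 of 17 (5.88%), the Rpn11 summit printed above, against 1.15% of all promoter summits. The letters TTACGCAA, searched for after the Rpn5 window had been read, were at the Rpn5 summit alone among the 17 and at 6 of the 2257 promoter summits (0.266%).

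The Motif 1 core was in 5 of 32 main subunit promoters (15.6%), in 0 copies and in 7.7% of all promoters. The ARE was also in 5 of 32 (15.6%), in the copy Prosbeta4R2 and in 8.63% of all promoters. None of the 5 main subunit promoters with an ARE, which were those of Prosalpha2, Prosbeta3, Rpn1, Rpn7 and Rpt6, belonged to a gene with a thresholded summit. The ARE was in 8.74% of the promoters of all genes with one. Neither motif was within 50 bp of any of the 17 summits, against 1.73% and 2.88% of all promoter summits.

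**Figure D4:**
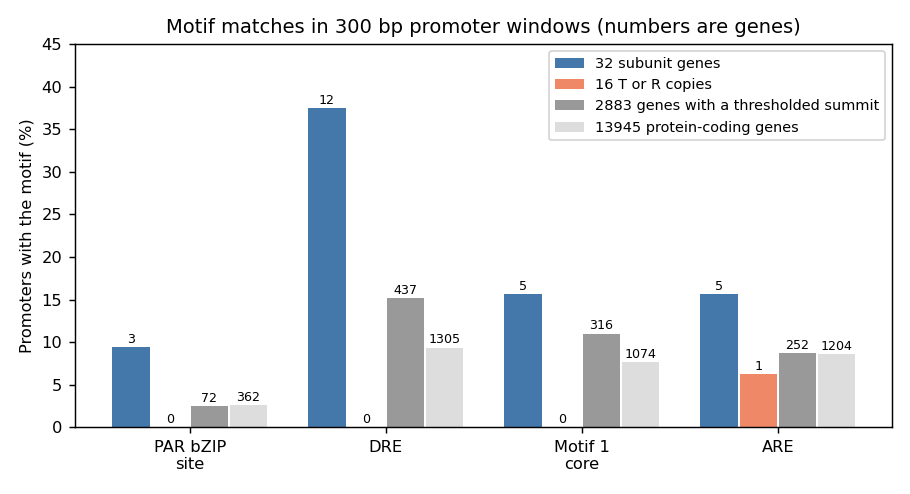
Share of promoters (y axis, %) with each of 4 motifs (x axis) for the 32 main subunit genes, the 16 copies, the 2883 genes with a thresholded promoter summit and all 13945 protein-coding genes, with the number of promoters above each bar. The DRE bar of the main subunit genes, at 37.5%, is the highest.

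Genes that regulate, assemble or feed the proteasome were read in the same way. Of 18 listed genes 17 were matched, and 10 of the 17 had a thresholded promoter summit, 9 of them with their own start site nearest, beside the 20.7% and 15.2% of all genes. They included 3 of 4 regulators, 3 of 5 assembly factors and caps, 1 of 5 deubiquitinases and shuttles and all 3 genes of ubiquitin supply. cnc, which encodes the fly factor that activates proteasome genes under proteotoxic stress, had a pooled signal of 201 with 67.7, 61.4 and 62.5 in the replicates, 343 bp downstream of a start site of its own. Its partner gene maf-S had no thresholded or pooled promoter summit. The polyubiquitin gene Ubi-p63E had 276, with 109, 98.1 and 59.9 in the replicates.

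Other linked genes with a thresholded summit were rngo (113), Pngl (145), the proteasome maturation factor gene Pomp (194), PI31 (124), the deubiquitinase gene Uch-L5 (183), the ubiquitin-activating enzyme gene Uba1 (106) and the polyubiquitin gene Ubi-p5E (119), given by pooled signal. At ntc (278) the start site of IntS10 was nearer. REG, Sem1, Usp14, Rad23, Ubqn and TER94 had no thresholded promoter summit. Support by replicate varied. In all 3 top lists a promoter summit was found at cnc, ntc, Uch-L5 and Ubi-p63E, as it was at 1834 of the 13945 protein-coding genes. Pngl, Pomp and PI31 had one in 2 top lists, and rngo, Uba1, Ubi-p5E and TER94 in 1.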

How the data were processed

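Peak lists of 3 biological replicates of 1 group of whole embryos were used. The deposited lists are narrowPeak files in dm6 coordinates, with the signal of each peak in column 7 and the summit offset in column 10. Per the listing deposited with the samples, each replicate has a relaxed list, a further list was called on the 3 replicates pooled against a control, and the thresholded list is the one kept by the irreproducible discovery rate procedure. The sources used here name neither the aligner nor the peak caller. The authors' signal is not scaled between lists (medians 21.3, 15.1 and 15.2 in the replicates), and sequencing depth is unknown. Lists in dm3 coordinates were not used.

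Summits (start plus offset) were assigned to protein-coding genes of Ensembl release 115 within 500 bp of any start site, with Python 3.11.15, numpy 2.4.6 and pandas 2.3.3. Neighbours were other protein-coding genes. The top list of a replicate is its 4622 peaks of highest signal. A replicate summit matches within 100 bp. Peaks that share a start site share their source, and no test was made, since there is 1 group. Counting was checked on simulated peaks.

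All genes of the symbol rule were described, with values in every list for those with a thresholded promoter summit. The members and lists were chosen with earlier results of these data known. Windows and promoters were read from the Release 6 genome (RefSeq), cut where an annotated UTR begins except through a motif match. A window of the rule with under 50 bases outside UTRs was not printed, and windows on 1 chromosome arm were left out. The windows of Rpn3, Rpn5, Rpt5, Prosalpha6 and Prosalpha6T were chosen after their values were seen. Of these, the Rpt5 stretch, at 46 bases, falls below the limit of 50. The Prosalpha6 pair replaced Prosalpha4 and Prosalpha4T1, whose promoters reach into UTRs. The printed windows are examples and do not show how common a motif is. Alternatives were other TSS windows (200 and 1000 bp), the outermost start site, stricter peak sets, other lengths of the top lists, Rpn10 counted with the lid, and leaving out each replicate.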

Additional observations from a re-analysis of the deposited data

How the results depend on the processing

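Of 142 recomputed values, 76 stayed within the limits set (1.5 times for a count, 1 SD for a share). Below, counts are of genes with a thresholded promoter summit, followed in brackets by those whose own start site was nearest. With the 2311 peaks of highest signal they were 5 (3) of the 48 genes (12.4% of all protein-coding genes), 0 (0) of core, 1 (1) of base and 5 of main subunit genes. The own-start-site share was 6.25% of the 48, against 8.73% of all genes. With support in all 3 top lists (12.2%) they were 5 (2) of the 48, 1 (1) of core, 3 (1) of lid, 1 (0) of base and 5 of main subunit genes, and with support within 200 bp, chosen after seeing the data, 5 (3), 1 (1), 3, 1 (0) and 5. Leaving out each replicate in turn, where both others had to support a peak, gave 5 to 8 (2 to 3) of the 48 (13.2% to 15.4%), 1 to 2 (1) of core, 3 to 4 (1) of lid, 1 to 2 (0 to 1) of base and 5 to 8 of main subunit genes. The own-start-site shares here were 4.17% to 6.25% of the 48, against 9.55% to 11.2% of all genes. All of these stricter sets hold fewer peaks by construction. A 200 bp window gave 3 core genes (14.8% of all genes), and in the pooled list, with no share of all genes given, 5 lid genes and 0 copies. The mean share in whole replicate lists was 54.2% of the 48, 45.3% of core, 81.5% of lid, 52.4% of base, 74.0% of main subunit genes and 14.6% of copies, against 48.2% of all genes. In top lists of 2311 peaks it was 9.72%, 0.0%, 44.4%, 4.76% and 14.6% of the 48, core, lid, base and main subunit genes, with no share of all genes given. Neither these shares nor the 200 bp pooled counts can therefore be set against a background. At summits the shares with the Motif 1 core and the ARE were 0.0%. No paired analysis was possible because there is 1 group. Peak lists give no read depth, so weak summits near the end of a list cannot be told from absent ones.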
